A study of Mus musculus with 2 samples.

Results

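Hepatic stellate cell and myofibroblast markers were compared between 1 liver of a wild-type C57BL/6 mouse and 1 liver of a C57BL/6 mouse of the genotype Alb-Cre;CAG-floxed neo-Snail. The group holds 10 genes, chosen by their names in the scanner files from 31896 gene names on the array: Colec10, Colec11, Angptl6, Ecm1, Lrat, Reln, Lum, Dcn, Des and Acta2. They were read by 11 of 39429 probes, on 29 of 43020 non-control spots. Cy3-labelled complementary RNA from each liver was hybridized to 1 Agilent array of 60-base probes, and both arrays lay on 1 slide. Alb-Cre places a Cre recombinase under the albumin promoter, a promoter of hepatocytes, so stellate cells are not the cells that the label says were targeted. The labels give neither the age nor the sex of the animals, and do not say whether animals were pooled.

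Hepatic stellate cells are the vitamin A-storing pericytes of the liver sinusoid, which lie between hepatocytes and the sinusoidal endothelium. In the healthy liver they hold retinyl esters in lipid droplets and secrete lectins, growth factors and matrix proteins. On injury they can lose these stores and turn into contractile, collagen-secreting myofibroblasts that carry smooth muscle actin. In whole liver RNA, fewer cells of a type and less RNA per cell cannot be told apart.

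All signals are brightness values on a linear scale. A scaled signal is the signal divided by the 75th percentile of the array's non-control spots, a value of 232.7 for wild-type and of 302.1 for the second array. Differences are log2 differences of scaled signals, the second library minus wild-type. The error given with each (±) is that of the scanner software's own error model for the spots, combined over both arrays. It covers array noise only. A probe is called detected, or measured, where the scanner software called it well above background, and below background where it did not. With 1 array per group there is no replicate check, no test was run, and at least 2-fold serves as a rule of size. Snai1, the gene of the transgene, had signals of 23.2 and 22.3, a log2 difference of -0.44 at its single probe. Its probe was not placed relative to the transgene here and does not check the label, so the second array is called the library labelled Snail. All 14 hepatocyte markers on the array, such as Alb and Ttr, were measured in both libraries.

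The sequences of 8 probes are shown because the results turn on them. Each was read from the scanner files, is written 5′ to 3′ in lower case, and is placed on the mouse build mm9. For Colec10, Lum and Acta2 only the first 30 of 60 bases are given.
Colec10, chr15:54297813-54297872, plus strand: ggtgattctagcagatgctcattcagtctg
Angptl6, chr9:20678326-20678385, minus strand: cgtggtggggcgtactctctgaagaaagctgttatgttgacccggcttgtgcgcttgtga
Ecm1, chr3:95540094-95540403, minus strand: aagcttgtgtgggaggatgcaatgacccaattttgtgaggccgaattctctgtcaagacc
Reln, chr5:21404915-21404974, minus strand: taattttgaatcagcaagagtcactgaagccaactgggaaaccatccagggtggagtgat
Lum, chr10:97035210-97035269, plus strand: taagcatttgcacggttacttagtgaaact
Dcn, chr10:96980233-96980292, plus strand: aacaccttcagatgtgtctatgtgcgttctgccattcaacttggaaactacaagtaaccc
Des, chr1:75363404-75363629, plus strand: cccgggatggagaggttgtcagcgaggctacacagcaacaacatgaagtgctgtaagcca
Acta2, chr19:34316060-34316119, minus strand: gttttgtggatcagcgcctccagttccttt
The Ecm1 probe shown spans 310 bases of the genome and the Des probe 226 bases, so each crosses at least 1 intron. The Lum and Dcn probes lie 54918 bases apart on chromosome 10. The other probes lie as follows: Colec11 at chr12:29279240-29279299, Lrat at chr3:82696805-82696864 and a second Ecm1 probe at chr3:95538120-95538178, all on the minus strand.

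Of the 10 genes, 8 were well above background on both arrays, and all 8 had lower scaled signals in the library labelled Snail. Among all 15466 genes measured on both arrays, 52.6% were below 0. At least 2-fold lower were 5 of the 8, namely Colec10, Lum, Angptl6, Ecm1 and Lrat, against 6.34% of all genes. None of the 8 was at least 2-fold higher, against 3.96% of all genes. At a size of 1.5-fold, all 8 were lower, against 14.5% of all genes. The median log2 difference of the 8 was -1.17, and that of all genes was -0.03. The remaining members were Acta2, whose probe was above background in 1 library, that labelled Snail, and Des, seen in neither.

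**Figure D1:**
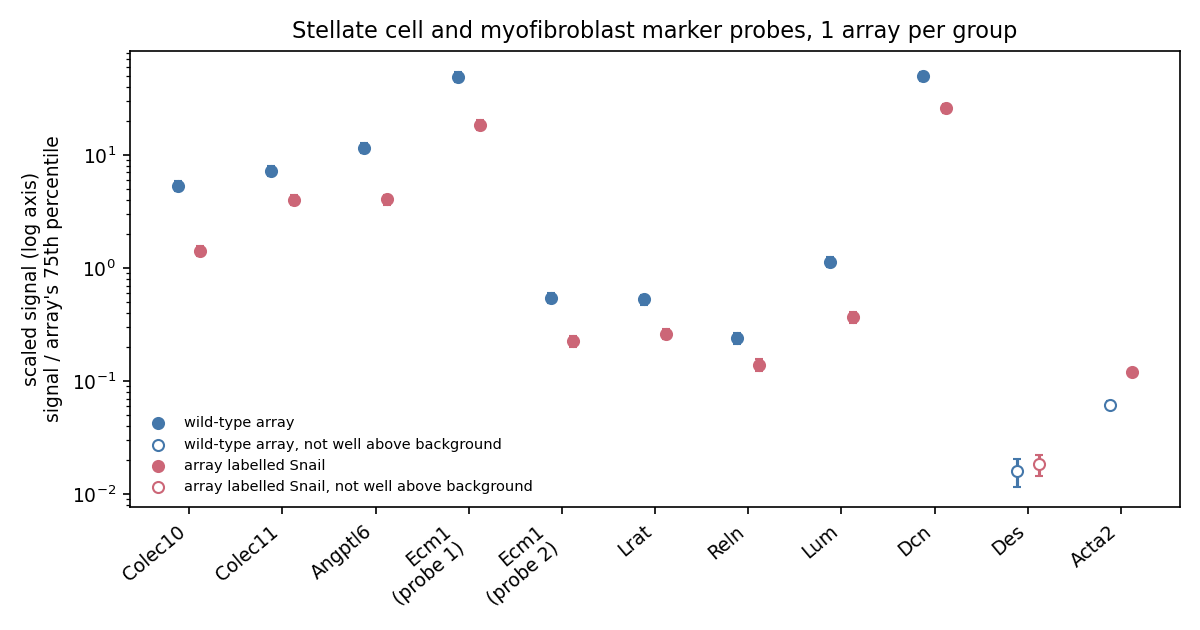
Scaled signal (signal divided by the array's 75th percentile, log axis) of the 11 probes on the wild-type array and the array labelled Snail, with bars for the scanner software's error. Probe 1 of Ecm1 is the one at chr3:95538120-95538178. Open circles are probes not well above background. The 9 probes measured on both arrays are lower in the library labelled Snail, and the Acta2 probe is higher.

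The lectin and growth factor genes among the members were lower. Colec10 encodes collectin liver 1, a soluble C-type lectin of the complement lectin pathway. It gave a signal of 1242 ± 124.3 in wild-type and of 426.1 ± 42.7 in the library labelled Snail. The log2 difference was -1.92 ± 0.20, which is 3.79-fold lower and the largest difference among the 10 genes. Of all measured genes, 1.68% had a value at or below it.

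Colec11 encodes collectin kidney 1, which forms mixed complexes with collectin liver 1 and binds the MASP proteases. It gave 1674 ± 167.5 in wild-type and 1208 ± 120.8 in the library labelled Snail. The log2 difference was -0.85 ± 0.20, or 1.80-fold lower. Of this lectin pair, Colec10 lay past the 2-fold mark and Colec11 short of it, and no test of that difference was possible.

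Angptl6 encodes a secreted angiopoietin-like growth factor that acts in angiogenesis and energy metabolism. Its signals were 2684 ± 268.4 and 1221 ± 122.1. The log2 difference was -1.51 ± 0.20, or 2.86-fold lower. Elsewhere in its family, Angptl4, which encodes an inhibitor of lipoprotein lipase, had a log2 difference of 0.72, and the vessel-destabilizing ligand gene Angpt2 was 2.67-fold higher, from a dim wild-type signal of 14.2.

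All the matrix genes among the members, Ecm1, Lum, Dcn and Reln, were measured and were lower. Ecm1 encodes a secreted glycoprotein that in mouse liver keeps stored TGF-beta inactive. The probe at chr3:95538120-95538178 gave signals of 11389 and 5585, a log2 difference of -1.41 ± 0.20. The probe shown above gave 126.8 and 67.8, a log2 difference of -1.28 ± 0.21. By their mean Ecm1 was 2.54-fold lower. It is the only member with 2 separate probes, and they lay 0.12 apart on the log2 scale.

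Lum encodes lumican, a small leucine-rich proteoglycan that organizes collagen fibrils. Its signals were 262.2 ± 26.4 and 110.8 ± 11.4. The log2 difference of -1.62 ± 0.21 made it 3.07-fold lower. Dcn encodes decorin, a related proteoglycan that binds collagen and TGF-beta. Its signals were 11549 ± 1155 and 7804 ± 780.4, a log2 difference of -0.94 ± 0.20 or 1.92-fold lower, just short of the 2-fold mark. Of the 15 small leucine-rich proteoglycan genes on the array 4 were measured on both arrays. Beside Lum and Dcn, the podocan gene Podn had a log2 difference of -0.23 and the biglycan gene Bgn one of 0.07, so Lum and Dcn had the lower values of the 4. A further 2 of the family, Fmod and Chad, were detected in wild-type liver alone, and both were dim there, at 14.7 and 18.5.

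Reln encodes reelin, a large secreted glycoprotein that in brain signals through the receptors encoded by Vldlr and Lrp8 to the adaptor Dab1. It marks stellate cells in liver. Its signals were 56.2 ± 6.38 and 42.3 ± 5.11, dim on both arrays. The log2 difference was -0.79 ± 0.24, or 1.73-fold lower. Of 13 genes of the reelin pathway 10 were measured, with a median of -0.01, and none of these was at least 2-fold apart. Among all genes, 6.34% were lower and 3.96% higher by that size. Itga3, detected in wild-type alone with signals of 27.6 and 3.40, was at least 2.78-fold lower in the library labelled Snail. The receptor gene Vldlr had a log2 difference of -0.89, Dab1 had -0.49, and Lrp8 was below background in both libraries.

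Lrat encodes lecithin retinol acyltransferase, which makes the retinyl esters that stellate cells store. Its signals were 123.0 ± 12.6 and 79.5 ± 8.39. The log2 difference was -1.01 ± 0.21, or 2.01-fold lower, so it lay on the 2-fold mark within its error. Across the 2-fold mark its neighbours were Dcn, at 1.92-fold, and Colec11, at 1.80-fold.

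**Figure D2:**
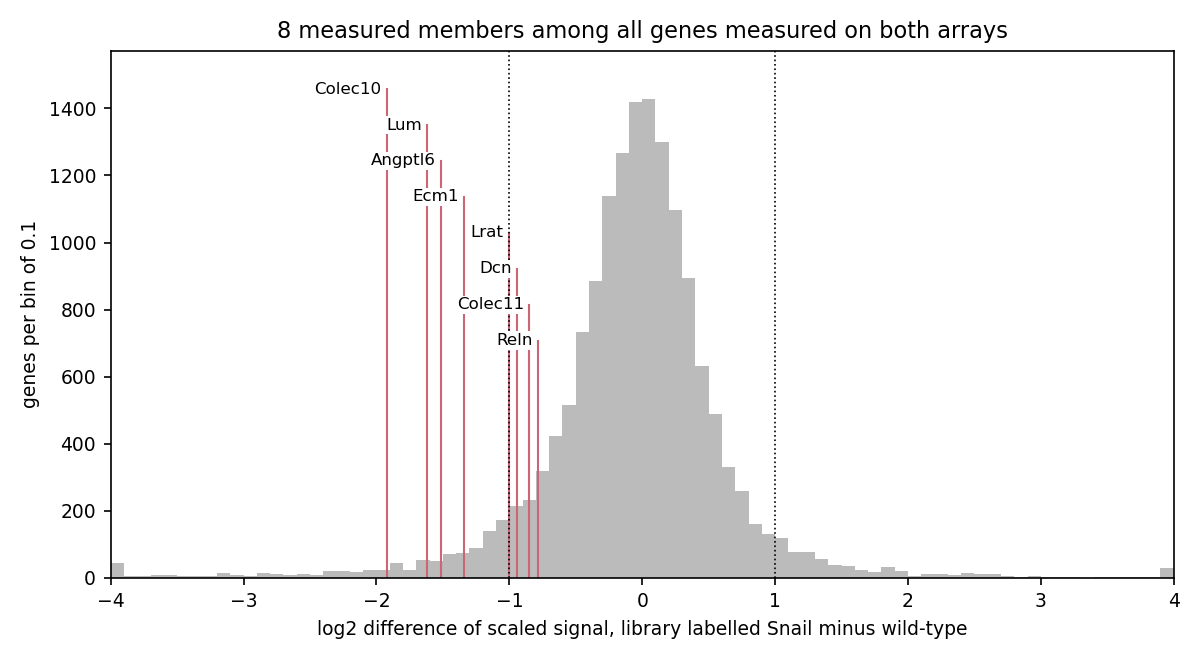
Number of genes per bin of 0.1 in the log2 difference (library labelled Snail minus wild-type) for the 15466 genes measured on both arrays, with red lines at the 8 measured members and dotted lines at 2-fold. Genes beyond 4 in size are gathered in the outermost bins. The members lie from -1.92 for Colec10 to -0.79 for Reln, on the left side of the distribution.

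The cytoskeletal markers, Acta2 and Des, were the members not measured on both arrays. Acta2 encodes alpha smooth muscle actin, the usual marker of myofibroblasts and of vascular smooth muscle. Its probe was printed 10 times. On the wild-type array the spots ranged from 10.1 to 22.3 with a median of 14.3, and 4 of 10 were well above background. On the array labelled Snail they ranged from 30.2 to 41.5 with a median of 35.9, and all 10 were well above background. After scaling, the ranges were 0.0435 to 0.0958 and 0.0999 to 0.137 and did not overlap, and each of the 10 spot positions was higher in the library labelled Snail. These spots are repeat prints of 1 probe on 1 array per group, so they show the spread of printing and not that of livers. The observed ratio of scaled signals was 1.93-fold higher, a log2 difference of 0.95 ± 0.13. With normexp background correction in place of the software's own, the log2 difference was 0.05. That setting also adds an offset of 50, which shrinks differences of dim signals such as these. The parts of the offset and of the background correction were not tested apart. The log2 difference was 0.89 with quantile and 0.90 with loess normalization. The lowest value outside normexp was 0.84, without a filter.

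Des encodes desmin, the muscle intermediate filament protein that marks stellate cells in rodents. Its probe was also printed 10 times, and no spot was well above background on either array. In wild-type the spots ranged from 2.74 to 6.50, and on the second array from 2.64 to 11.8, so the arrays overlapped. Of the 10 spot positions, 5 were higher in the library labelled Snail after scaling. No fold is given for Des, and its transcript was not detectable at this probe. Gfap, another filament gene used as a stellate marker, was likewise not well above background, whereas Vim, which encodes vimentin, was 1.87-fold higher.

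**Figure D3:**
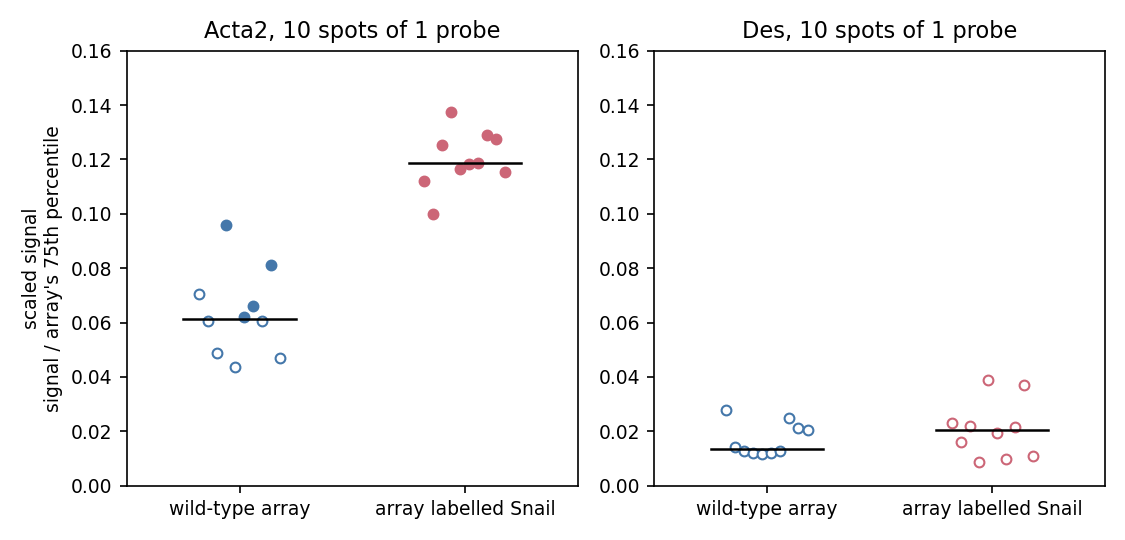
Scaled signal of each of the 10 spots of the Acta2 probe and of the Des probe on the 2 arrays, with filled circles for spots well above background and a line at the median. The Acta2 spots do not overlap between arrays, with medians of 0.0613 and 0.119, and the Des spots do, none of them well above background.

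Like the other lists, the further stellate cell markers were chosen with earlier results of these data known, so they give no independent support. They pointed the same way as the 8 measured members. Of 28 on the array 21 were measured on both, and 19 of them were below 0, against 52.6% of all genes. At least 2-fold lower were 5, against 6.34% of all genes. None was at least 2-fold higher, against 3.96% of all genes, and the median was -0.79. The count of 5 was 2 with normexp correction, against 3.70% of all genes, with a median of -0.54. It was 3 with scaling to the 75th percentile of spots well above background, against 5.47%, with a median of -0.71. Sparcl1, which encodes a matricellular protein of the SPARC family, was 3.80-fold lower, with signals of 315.5 and 107.7. Gdf2, which encodes the circulating ligand BMP9, was 2.13-fold lower. Lhx2, a transcription factor that holds stellate cells quiescent in mice, was 2.10-fold lower, and the parathyroid hormone receptor gene Pth1r was 2.07-fold lower. Smaller differences were those of the pericyte gene Rgs5, at -0.96 on the log2 scale, the transcription factor gene Hand2, at -0.89, and the growth factor gene Hgf, at -0.76. The platelet-derived growth factor receptor genes Pdgfra and Pdgfrb had values of -0.79 and -0.47, and Cygb, which encodes the globin of stellate cells, had -0.29. Above 0 were Notch3, at 0.17, and the metalloreductase gene Steap4, at 0.85. Of the 7 others, Adamtsl2 was detected in the library labelled Snail alone and was at least 2.17-fold higher, the potassium channel gene Kcnj8 was detected in wild-type alone, with signals of 26.3 and 13.4, and 5 were below background on both.

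Genes of retinoid handling, the pathway that Lrat serves, were split. Of 25 measured genes 6 lay at 2-fold or more on the lower side, against 6.34% of all genes, and 3 on the higher side, against 3.96%, and the median was -0.47. With normexp correction 2 were lower and 2 higher by that size, against 3.70% and 1.92% of all genes. At signals of at least 100, 4 of 20 were lower, against 5.84%. With scaling to the 75th percentile of spots well above background 4 were lower, against 5.47%. Beside Lrat, the lower genes included Bco1, which cleaves beta-carotene, at 3.67-fold, the retinoic acid hydroxylase genes Cyp26a1 and Cyp26b1, at 2.51-fold and 2.35-fold, and the retinoic acid receptor gene Rarb, at 2.02-fold. Dhrs9, a retinol dehydrogenase gene, was 12.4-fold higher from a dim wild-type signal of 17.8, the receptor gene Rarg 2.93-fold higher and the lipoprotein lipase gene Lpl 2.42-fold higher. The carrier gene Rbp4, expressed in hepatocytes, had a log2 difference of -0.26.

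In the lectin pathway, 8 of 11 genes were measured. The median was -0.78, with 7 below 0, against 52.6% of all genes, and 2 lower by 2-fold or more, against 6.34%. That count was 1 with normexp, quantile and loess normalization. It was also 1 with the 75th percentile of spots well above background and in the authors' value table. Under these settings 3.70% to 6.17% of all genes were lower by that size. The protease gene Masp2 was 2.04-fold lower, Mbl2, a mannose-binding lectin made by hepatocytes, 1.90-fold lower, and Masp1 1.64-fold lower. Mbl1 had a log2 difference of 0.02. The Colec10 value was the lowest of the 8, and the values of Colec11 and Mbl2 lay closer together than their array-noise error.

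Genes of myofibroblast activation had a median above 0. Of 27 on the array 18 were measured on both. Of these, 13 were above 0 and 5 below 0, against 52.6% of all genes below 0. The median was 0.32, with 4 higher by 2-fold or more, against 3.96% of all genes, and 0 lower, against 6.34%. The count of 4 was 1 with normexp correction, where the median was 0.20, and 2 of 11 at signals of at least 100. The shares of all genes higher by that size were 1.92% and 2.53% under these settings. Summed scaled levels were 188 for wild-type and 128 for the second library. Most of both sums came from 1 gene, Fn1, the brightest of the list, so they do not describe the other genes. Tpm2, which encodes beta-tropomyosin of the contractile apparatus, was 16.9-fold higher, with signals of 167.2 and 3676 and probes that lay 0.01 apart on the log2 scale. Ccn2, the connective tissue growth factor gene, was 3.15-fold higher, the collagen gene Col1a1 2.50-fold and the calcium-binding protein gene S100a6 2.12-fold. Col3a1 was 1.94-fold higher, and the actin-binding genes Tagln and Myl9 had log2 differences of 0.49 and 0.27. Below 0 were the fibronectin gene Fn1, which hepatocytes also express, at -0.80 with signals of 40518 and 30226, the collagen gene Col5a1, at -0.76, Pdgfrb, at -0.47, the periostin gene Postn, at -0.28, and Sparc, at -0.07. Timp1, Lox and Cnn1 were not well above background on either array.

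Markers of the other cells that carry Acta2 were mostly too dim to be measured. Of 13 vascular smooth muscle genes 4 were measured, with a median of 0.30. None of the 4 was at least 2-fold apart, against 6.34% of all genes lower and 3.96% higher. Below background on both arrays were 8, among them Myh11, Cnn1 and Myocd. The pericyte proteoglycan gene Cspg4, not detected in wild-type, was at least 5.81-fold higher. Of 18 portal fibroblast and mesothelial genes 8 were measured, with a median of -0.03. Cd34, also carried by endothelium, was 2.62-fold higher, and Fbln1, which encodes fibulin 1, was at least 6.86-fold higher, while Gli1, Wt1 and Gpm6a were below background on both arrays. The part of such cells in the Acta2 result was not tested.

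**Figure D4:**
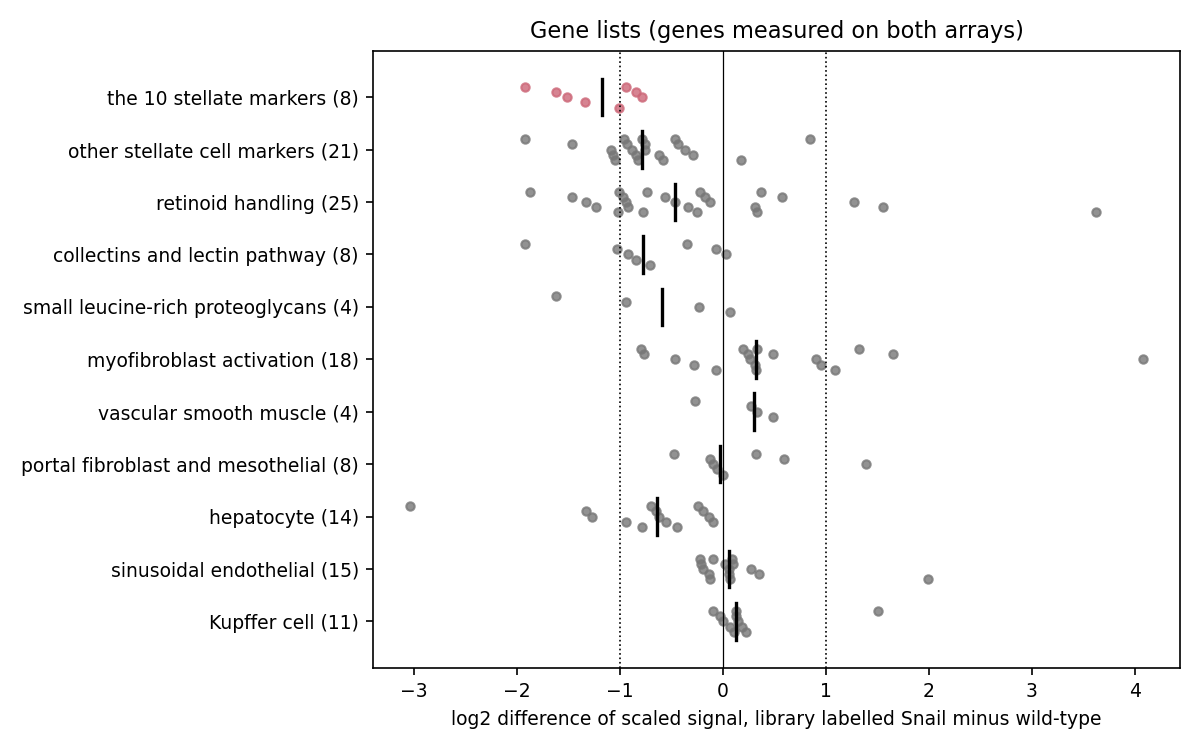
Log2 difference (library labelled Snail minus wild-type) of each gene measured on both arrays, by gene list, with the number of genes in brackets, black bars at the medians and dotted lines at 2-fold. Among the 11 lists drawn, medians run from -1.17 for the stellate markers to 0.32 for the myofibroblast activation genes, with sinusoidal endothelial and Kupffer cell genes near 0.

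Lists for the other cell types of the liver were read beside these. The 15 measured sinusoidal endothelial genes had a median of 0.05, which ran from -0.04 to 0.13 over the other settings. The hyaluronan receptor gene Lyve1, at 3.98-fold higher, was the 1 gene past 2-fold. Among all genes, 3.96% were higher and 6.34% lower by that size. The endothelial genes had summed scaled levels of 69.6 for wild-type and 67.5 for the second library. The 11 measured Kupffer cell genes had a median of 0.13 and summed levels of 79.3 and 93.8. The scavenger receptor gene Marco, at 2.83-fold higher, was the 1 Kupffer cell gene past 2-fold, against the same shares of all genes. Hepatocyte markers were lower along with the stellate markers. All 14 were below 0, against 52.6% of all genes, and 3 were at least 2-fold lower, against 6.34%. Their median was -0.64, and their summed levels were 5054 and 3153. The apolipoprotein gene Apoa1 was 8.22-fold lower and the tyrosine aminotransferase gene Tat 2.51-fold. Over the other settings the hepatocyte median ran from -0.70 with median scaling to -0.15, both in the authors' value table and after quantile normalization, and it was -0.54 with normexp and -0.34 with loess. With quantile normalization the median of the 8 measured members was -1.14. The part of hepatocyte transcripts in the stellate marker result was not tested. The 8 measured members had summed levels of 80.8 and 38.1, and the 21 other stellate markers 39.0 and 20.7. Most of both member sums came from Dcn, at 49.6 and 25.8, so they do not describe the other members. Of 10 cholangiocyte markers 2 were measured, the transcription factor gene Sox9 at 2.92-fold higher and the osteopontin gene Spp1 at 1.49-fold higher, and Krt7, Krt19 and Epcam were below background on both arrays.

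Promoters from RefSeq (build GRCm38.p6, from 250 bases before to 50 after the start of a gene) were matched by symbol for 7 of the 10 genes: Acta2, Angptl6, Colec11, Des, Ecm1, Lrat and Reln. Colec10, Lum and Dcn were not searched. Snail is known to bind E-boxes of the letters CAGGTG, and these were searched on both strands. The motif was found in 1 of the 7 promoters, that of Lrat, and in 20.2% of 32851 promoters of the same length. The Lrat match starts 199 bases before the transcription start. The Lrat promoter is therefore shown for its 250 bases before the start, at chr3:82903975-82904224 on the minus strand, with the motif in capitals.
Lrat promoter: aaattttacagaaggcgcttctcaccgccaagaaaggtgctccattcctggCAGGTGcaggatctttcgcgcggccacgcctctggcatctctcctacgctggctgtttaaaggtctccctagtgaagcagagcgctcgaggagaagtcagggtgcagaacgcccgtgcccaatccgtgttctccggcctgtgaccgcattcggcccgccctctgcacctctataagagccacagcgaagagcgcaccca
This match is a description of the letters in the window only.

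The order of the members by size of difference was Colec10, Lum, Angptl6, Ecm1, Lrat, Dcn, Colec11 and Reln, with gaps between neighbours of 0.06 to 0.34 on the log2 scale. The wider gaps were those from Colec10 to Lum, 0.30, and from Ecm1 to Lrat, 0.34; the others were within the array-noise error of a single value, 0.20 to 0.24. Under 8 other ways of scaling, background correction and filtering, every value that a probe of these 8 genes gave stayed below 0. Colec10, Angptl6 and Lum stayed at least 2-fold lower in each, with log2 differences from -1.99 to -1.71, from -1.58 to -1.38 and from -1.68 to -1.17. The settings with signals of at least 100 and with no filter only chose which probes were kept. They repeat the reported values of these probes and are no further check. Lrat moved between -1.07 and -0.64 and Reln between -0.85 and -0.51, each with its smallest size under normexp correction, whose offset shrinks differences of dim signals. Dcn moved between -1.01 and -0.71 and Colec11 between -0.91 and -0.75. The Ecm1 probe at chr3:95538120-95538178 moved between -1.47 and -1.20, and the other between -1.35 and -0.86.

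**Figure D5:**
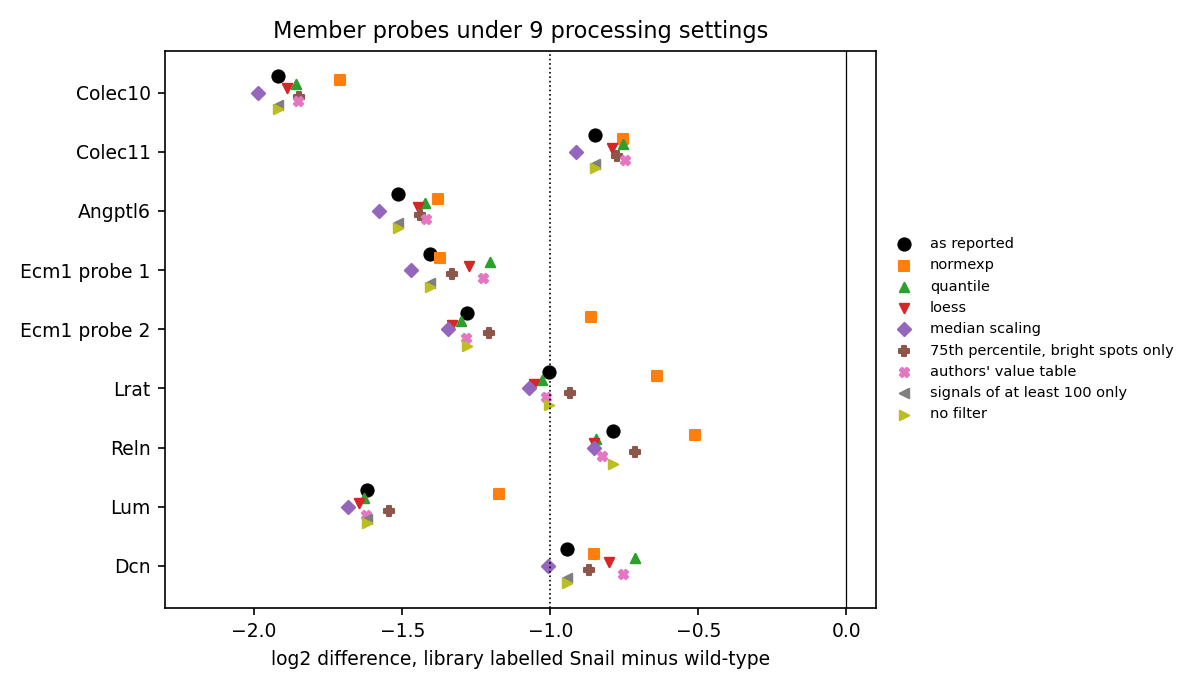
Log2 difference (library labelled Snail minus wild-type) of the 9 probes measured on both arrays, as reported (black circles) and under 8 other processing settings, with a dotted line at 2-fold. All points lie below 0, and the normexp points of the dim probes of Ecm1, Lrat, Reln and Lum lie nearest to it within their rows. Points for signals of at least 100 and for no filter repeat the reported values.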

How the data were processed

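The deposited intensity values were made by the authors with Agilent Feature Extraction (9.5.1.1, as the submitters' processing notes give it), background-subtracted and detrended within each array with no scaling across arrays, per the file headers. A deposited value table of linear intensity, with a median of 17.3 in each column and its scaling not given in the sources used here, was an alternative.

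Each processed signal was divided by its array's 75th percentile of non-control spots and put on a log2 scale. Left out were 287 outlier spots, none of them a member's. Log2 values of repeat spots were averaged, and a probe counted as well above background where a share of its spots above 0.5 was called so by the software. A gene is the mean of its probes well above background on both arrays. A gene seen on 1 array has a bound, its bright scaled signal over the higher of the dim signal and the lowest signal well above background, 13.8 for wild-type and 12.9 for the second array, and is written "at least" only where the latter was the higher. Spots called well above background were 50.7% and 54.0% of non-control spots. Repeatedly printed probes had a median SD of the log2 difference of 0.08 over 239 probes, and of 0.19 at signals under 100. Gene names came from RefSeq (GRCm38.p6) by accession for 66.1% of probes. Python 3.11.15 and limma 3.58.1 (normexp with offset 50, loess with span 0.3, quantile) were used, and the calculation was tested on simulated data. The number of arrays limits the precision.

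The members and the 15 other gene lists were chosen with earlier results of these data known, and 19 of 219 listed genes are in more than 1 list. All members could be named, any gene of the lists related to stellate cells, and up to 2 genes by size of each other list, apart from defining markers. With 2 arrays no genes of like pattern could be ranked. A few listed genes are not reported here by name.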

Additional observations from a re-analysis of the deposited data

How the results depend on the processing

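All 8 measured members were below 0 as reported and under normexp, quantile, loess, median scaling, the 75th percentile of spots well above background, the authors' value table and the brightest probe. The count at least 2-fold lower, 5 as reported, was 4 to 6 under these, against 3.70% to 7.25% of all genes. It was 8 at a size of 1.5-fold, against 14.5% of all genes. With signals of at least 100 on both arrays 6 members remained measured, 4 of them at least 2-fold lower, against 5.84% of all genes. The count at least 2-fold higher was 0 throughout, and the median ran from -1.46 with that filter to -0.97 without a filter, where the median of all genes was -0.47. Without a filter Des also took a value of -0.47, which is the difference between the floors of the arrays. Over all genes, counts past 2-fold were 613 higher and 980 lower as reported, 297 and 572 with normexp, and 262 and 605 at signals of at least 100. No paired analysis was possible because each group has 1 array, and for the same reason no array could be left out. The slide could not be used as a block, since both arrays were on the same slide. Acta2, Des and Reln were limited by dim signals.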
